A study of Rattus norvegicus with 8 samples.

Results

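The extracellular matrix of the liver holds glycoproteins, proteoglycans and matricellular proteins beside its collagens. Fibronectin and fibrillin form fibres on which other matrix proteins assemble, and elastin is laid down on fibrillin. Decorin, biglycan and lumican are small leucine-rich proteoglycans that bind collagen fibrils, and decorin also binds the growth factor TGF-beta. Thrombospondins, SPARC and periostin are secreted proteins that act on cells and on other matrix proteins, and thrombospondin 1 can release TGF-beta from its latent form. Hepatocytes secrete plasma fibronectin, whereas stellate cells and portal fibroblasts are the usual liver source of most of the others, which rise in scarring liver.

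The genes described here are Fn1, Lum, Dcn, Bgn, Fbn1, Eln, Sparc, Postn, Thbs1 and Thbs2. Their probe sets were found by the gene symbol or the gene identifier in the array annotation, which gave 10 genes of the 24144 on the array, each with 1 probe set of 3 probes. Probe positions were not given, so splice forms, such as those of Fn1, could not be told apart. Liver RNA came from 8 male F344/N rats, with 4 animals treated with thioacetamide for 28 days and 4 untreated controls on basal diet with tap water. Liver enzymes turn thioacetamide into a reactive product that injures hepatocytes. Gavage is named as the route in both groups' labels, and neither a dose nor an age is stated there. Each RNA was measured on a NimbleGen array in 1 colour (Cy3), and the values are log2 expression after RMA, the background correction, normalization and probe summary that the authors applied.

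Olfactory receptors, which liver should lack, served as a background: on each array, the value that 95% of their 1312 probe sets did not exceed. It lay between 6.53 and 6.93 in treated rats and between 6.96 and 7.88 in controls. It was highest in control rats 2 and 3 and, among the treated, in treated rat 4, arrays that an earlier analysis of these data also found apart from their groups, and results are given without these 3 where that changes a call. The part of this shift between groups in the results was not tested. The tissue label was borne out by 12 hepatocyte markers, which were above the level on every array, with a mean log2 level of 15.2 to 15.3 in treated rats and 15.3 to 15.4 in controls, and 0 of 12 changed (limma, 0 also unadjusted). These levels lie near the top of the scale, where a difference can be compressed, and 2 of the 12 differences were positive. Over all probe sets the comparison called 2480 higher and 1347 lower, of which 64.8% were higher, against 53.5% after cyclic loess normalization.

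Of the 10 genes, Thbs1 and Dcn rose in treated livers and 0 of 10 fell, where in whole liver a change in the number of cells and in RNA per cell cannot be told apart (limma, adjusted p under 0.05 over all probe sets; unadjusted, 3 higher and 0 lower). Each gene has 1 probe set, and 14.6% of all probe sets were called, 9.46% higher and 5.14% lower. Over all 24144 genes 14.9% were called, 9.67% higher and 5.24% lower, so 2 rises among 10 genes is a count near what the whole array gave. The differences ran from -0.96 for Eln to 1.86 for Thbs1 on the log2 scale, 8 of 10 were positive, and their median was 0.26, against 47.4% positive and a median of -0.04 over all genes. Of all genes, 6705 were not above background on any array. Over the 14699 probe sets above it on at least 4 arrays the median was 0.14. The background level was lower in treated rats, so a dim probe set could pass this filter on treated arrays alone. That median therefore cannot show whether the positive shift was particular to the 10 genes. The number of the 10 called was 1, Thbs1 alone, without control rat 1, control rat 2, treated rat 2 or treated rat 4. It was also 1 after cyclic loess and without control rats 2 and 3 and treated rat 4 together, and 3 with an intensity trend and robust variance, where Sparc passed too. The groups did not overlap for Thbs1, Dcn and Sparc, each higher in treated livers, and 21.9% of all genes had groups that did not overlap (14.2% higher, 7.68% lower).

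**Figure D1:**
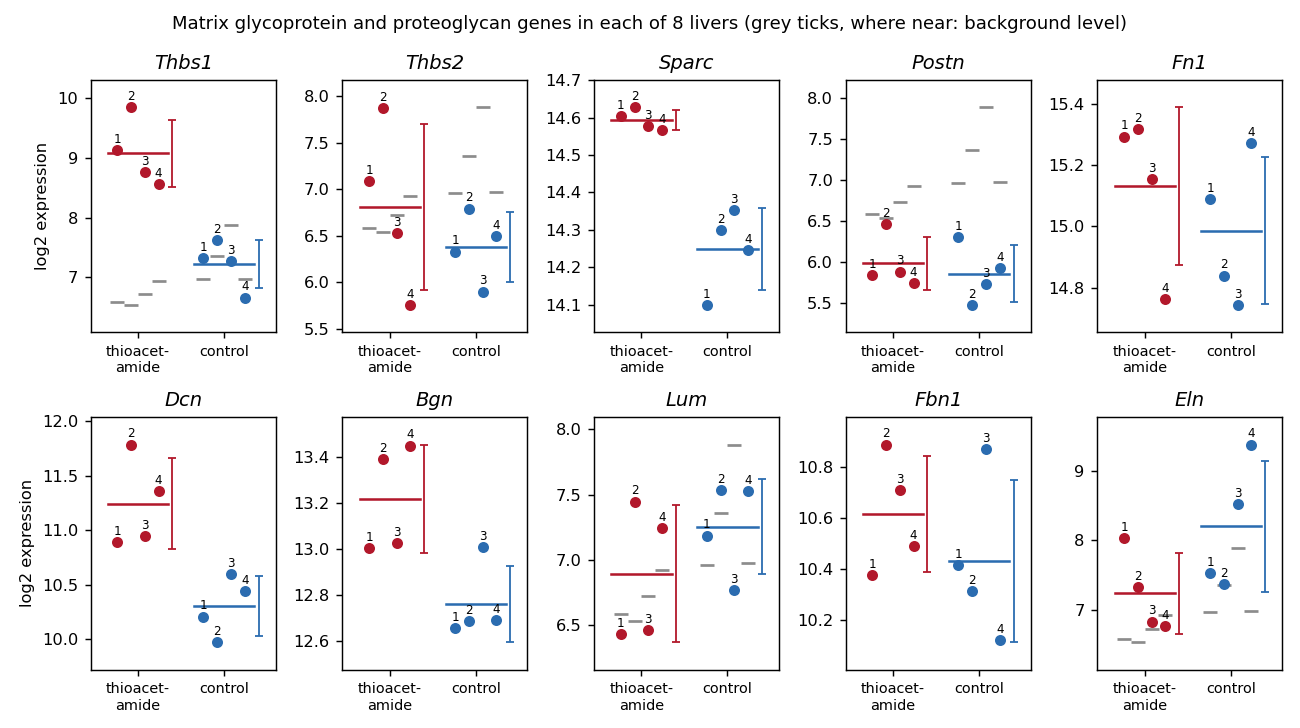
Log2 expression (y axis, a scale of its own in each panel) of the 10 genes in the 4 thioacetamide-treated livers (red) and the 4 control livers (blue). Points carry the replicate number, horizontal lines are group means, bars are SD and grey ticks give each array's background level for the genes not above it on all arrays. Thbs1, Dcn and Sparc have every treated liver above every control liver, while Postn lies under the level throughout.

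**Figure D2:**
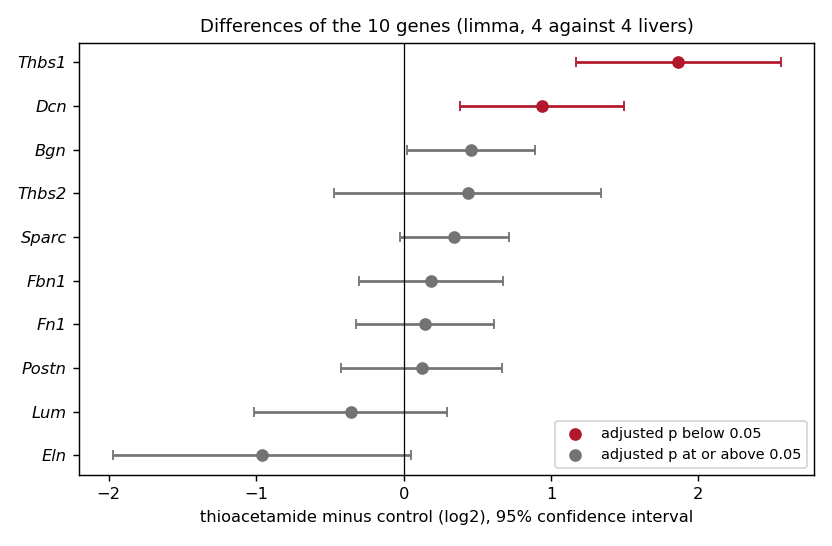
Thioacetamide minus control differences (x axis, log2) of the 10 genes with 95% confidence intervals from limma. Thbs1 (1.86) and Dcn (0.94), in red, passed the adjusted threshold, and the interval of Bgn just clears 0 without passing it.

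Thbs1 encodes thrombospondin 1, a secreted glycoprotein that activates latent TGF-beta and restrains the growth of blood vessels. Its log2 level was 9.14, 9.85, 8.76 and 8.57 in treated rats 1 to 4, against 7.32, 7.62, 7.27 and 6.66 in control rats 1 to 4. Every treated liver lay above every control liver, with a gap of 0.95 between the lowest treated and the highest control value. The mean was 9.08 ± 0.57 in treated rats and 7.22 ± 0.40 in controls (SD, n = 4 each), a rise of 1.86 ± 0.31 (SE) or 3.64-fold (95% confidence interval 2.25-fold to 5.90-fold, limma adjusted p = 0.00356). Among the controls, 2 of 4 arrays were above the background level, so part of the control mean rests on values at the level of unexpressed genes. The rise kept its call without any single array, at 1.61 to 2.03 (adjusted p = 0.00522 to 0.0152).

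RefSeq promoter sequence (GRCr8, the reference rat strain and not F344/N) was matched for 5 of the 10 genes, and the 250 bases before the start are shown for Thbs1 and Sparc, matched genes whose groups did not overlap. Capitals mark the motifs found on either strand among TATAAA of the TATA box, CCAAT of NF-Y sites, GGGCGG of Sp1 sites, TGACTCA of AP-1 sites, GGAATG of TEAD sites and the CArG box of serum response factor, and no match overlapped another. Thbs1 lies at chr3:125510000-125510249 on the plus strand and Sparc at chr10:40038817-40039066 on the minus strand, both written 5′ to 3′ along the gene.
Thbs1: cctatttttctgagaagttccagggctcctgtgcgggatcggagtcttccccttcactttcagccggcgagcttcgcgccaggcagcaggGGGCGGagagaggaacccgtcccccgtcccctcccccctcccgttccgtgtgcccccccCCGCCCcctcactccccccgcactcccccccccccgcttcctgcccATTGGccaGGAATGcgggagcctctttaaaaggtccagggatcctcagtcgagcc
Sparc: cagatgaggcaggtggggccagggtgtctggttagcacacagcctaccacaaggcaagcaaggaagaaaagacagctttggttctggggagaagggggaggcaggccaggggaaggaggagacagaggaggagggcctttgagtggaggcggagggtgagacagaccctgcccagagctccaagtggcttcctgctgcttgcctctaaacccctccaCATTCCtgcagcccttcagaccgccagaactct
GGAATG was present in both, 47 to 42 bases before the start of Thbs1 on the plus strand and 33 to 28 bases before that of Sparc on the minus strand. It stood in 12.1% of the 33469 promoter windows of this length in the table. Thbs1 also held GGGCGG on each strand and the CCAAT motif on the minus strand, which stood in 30.5% and 34.0% of all windows. TATAAA, in 12.9% of windows, was in neither, nor were TGACTCA (4.05%) and the CArG box (1.5%). The Thbs1 window was 67.6% G or C, against a median of 51.2% over all windows.

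Thbs2 encodes thrombospondin 2, which also restrains vessel growth but does not activate TGF-beta. Its level was 7.09, 7.87, 6.53 and 5.76 in treated rats 1 to 4, against 6.33, 6.79, 5.90 and 6.50 in control rats 1 to 4. Treated rat 2 was the highest of all 8 and treated rat 4 the lowest, so the treated livers spanned the whole control range. The difference of 0.43 ± 0.41 did not pass (adjusted p = 0.520), and its interval ran from -0.47 to 1.34. With 2 of 4 treated and 0 of 4 control arrays above background, the control level is only a bound.

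Platelets store thrombospondin 1, so their markers were measured beside it. Of 9 platelet and megakaryocyte markers measured, 0 changed (limma; unadjusted, 0 higher and 1 lower, which was Gp6; median difference -0.58), and their mean log2 level was 6.80 to 7.12 in treated rats and 7.10 to 8.22 in controls. Named after their values were seen, Pf4, platelet factor 4, was above background on 2 of 4 treated and 2 of 4 control arrays, Ppbp on 1 of 4 and 1 of 4, and Gp1bb and Gp6 on 0 arrays. Other markers of the list were brighter, and 2 of the 9 were above background on every array. Itga2b was 1 of these, with means of 10.80 in treated rats and 11.09 in controls. Gp9 was above background on 4 of 4 treated and 3 of 4 control arrays. Treml1, a receptor of platelet granules, differed by -0.81 ± 0.43 (adjusted p = 0.242). In control livers the list was highest in control rat 3, and without control rat 1 it had 1 fall.

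Sparc, or osteonectin, is a collagen-binding matricellular glycoprotein made by stellate and endothelial cells in liver. Its level was 14.61, 14.63, 14.58 and 14.57 in treated rats 1 to 4, against 14.10, 14.30, 14.35 and 14.25 in control rats 1 to 4. The groups did not overlap, and the treated livers lay within a narrow band (SD 0.03, against 0.11 in controls, n = 4 each). The difference of 0.35 ± 0.17, or 1.27-fold, did not pass (adjusted p = 0.197, interval -0.02 to 0.71). It passed with an intensity trend and robust variance (adjusted p = 0.0373). Postn encodes periostin, which links collagen to other matrix proteins. Its level was between 5.74 and 6.46 in treated rats and between 5.48 and 6.30 in controls, under background on all 8 arrays, so no fold is given (0.12 ± 0.24, adjusted p = 0.780). Its sign turned without treated rat 2 (-0.0373) and without control rat 2 (-0.00378).

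Fn1 encodes fibronectin, the adhesive glycoprotein that hepatocytes release into plasma and that fibroblasts assemble into fibres. It lay near the top of the scale of these arrays, whose highest value was 15.9 or more on each, where a difference can be compressed. Treated rats 1 to 4 had 15.29, 15.32, 15.16 and 14.76, against 15.09, 14.84, 14.75 and 15.27 in control rats 1 to 4, and the groups overlapped over nearly their whole range. The difference was 0.15 ± 0.21 (adjusted p = 0.691), and its interval reached from a fall of 0.32 to a rise of 0.61 on the log2 scale.

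Among the small leucine-rich proteoglycans Dcn rose, and neither Bgn nor Lum passed the test. Dcn, decorin, was at 10.89, 11.79, 10.94 and 11.36 in treated rats 1 to 4, against 10.21, 9.97, 10.60 and 10.44 in control rats 1 to 4. Each treated liver lay above each control liver, by at least 0.29, with treated rat 2 the highest. The mean was 11.24 ± 0.42 in treated rats and 10.30 ± 0.27 in controls (SD, n = 4 each), and Dcn rose by 0.94 ± 0.25 or 1.92-fold (interval 1.30-fold to 2.82-fold, limma adjusted p = 0.0326). All 8 arrays were above background. The call was lost without any one of 4 arrays, where the adjusted p was 0.0708 without control rat 1, 0.0832 without control rat 2, 0.0957 without treated rat 2 and 0.0666 without treated rat 4. It was 0.0816 after cyclic loess and 0.0857 without control rats 2 and 3 and treated rat 4, with differences of 0.76 and 0.88 that kept the direction.

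Bgn, biglycan, is the closest relative of decorin among these genes and carries a pair of glycosaminoglycan chains where decorin carries a single one. Treated rats 1 to 4 had 13.00, 13.39, 13.03 and 13.45, against 12.66, 12.69, 13.01 and 12.69 in control rats 1 to 4. Control rat 3 stood apart from the other controls and reached the lowest treated liver, so the groups met by 0.0037. The difference of 0.46 ± 0.19, or 1.37-fold, did not pass over all probe sets (unadjusted p = 0.0405, adjusted p = 0.149), and its interval ran from 0.02 to 0.89.

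Lum encodes lumican, a keratan sulfate proteoglycan of collagen fibrils. Its level was 6.43, 7.45, 6.46 and 7.24 in treated rats 1 to 4, against 7.19, 7.53, 6.77 and 7.53 in control rats 1 to 4. Treated rats 2 and 4 lay within the control range and treated rats 1 and 3 below it, with 2 of 4 treated and 3 of 4 control arrays above background. The difference was -0.36 ± 0.29 (adjusted p = 0.459, interval -1.01 to 0.30).

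Dcn and Lum are next to each other among the protein-coding genes of rat chromosome 7 in RefSeq (GRCr8), followed by Kera and Epyc of the same proteoglycan family. Dcn was the one of these 4 that passed the test. Kera, keratocan, differed by -0.26 ± 0.53 (adjusted p = 0.788), with 2 of 4 treated and 1 of 4 control arrays above background. Epyc, epiphycan, differed by 0.30 ± 0.28 (adjusted p = 0.520), with 1 of 4 treated and 0 of 4 control arrays above it. Lum, Kera and Epyc thus lay near background, which limits what their differences can show beside that of Dcn. Within-array log2 ratios were compared for 6 gene pairs, chosen after the values were seen, and those with Thbs2 and Postn are not given, since these genes were not above background in any control. The ratio of Dcn to Lum was higher in treated livers by 1.30 ± 0.30 and that of Dcn to Bgn by 0.48 ± 0.16, each with groups that did not overlap (exact two-sided permutation p = 0.0286 each, the smallest that 4 against 4 arrays allow, and Benjamini-Hochberg adjusted p = 0.0571 over the 6 pairs). The ratio of Bgn to Lum was higher by 0.82 ± 0.30, with groups that overlapped (exact permutation p = 0.0857, adjusted p = 0.103).

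Among the elastic fibre genes, neither Fbn1 nor Eln passed the test. Fbn1, fibrillin 1, the main protein of the microfibrils, had 10.38, 10.89, 10.71 and 10.49 in treated rats 1 to 4, against 10.42, 10.31, 10.87 and 10.12 in control rats 1 to 4. The groups overlapped and the difference was 0.18 ± 0.22 (adjusted p = 0.621), with the sign turned after cyclic loess (-0.00675). Eln, elastin, the rubber-like core of the fibre, had 8.02, 7.32, 6.83 and 6.77 in treated rats 1 to 4, against 7.53, 7.37, 8.52 and 9.37 in control rats 1 to 4. Its lowest values were in treated rats 3 and 4 and its highest in control rats 3 and 4, but treated rat 1 exceeded control rats 1 and 2. The difference of -0.96 ± 0.45 did not pass (adjusted p = 0.191, interval -1.97 to 0.05), and 3 of 4 treated and 4 of 4 control arrays were above background. Without control rat 4 it was -0.57, and the control spread (SD 0.93, against 0.58 in treated rats, n = 4 each) was wider than that of any of the other 9 genes. The ratio of Fbn1 to Eln differed by 1.14 ± 0.62 (exact permutation p = 0.0857, adjusted p = 0.103).

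Across animals, treated rat 2 stood highest among the treated for 8 of the 10 genes, all but Bgn and Eln. Treated rat 4 was the lowest of the treated for 6 of them (Thbs1, Thbs2, Sparc, Postn, Fn1 and Eln), and treated rat 1 for the other 4. Relative to each gene's control mean, the median deviation of the 10 genes was 0.27, 0.53, 0.22 and 0.02 in treated rats 1 to 4, against -0.06, -0.09, 0.08 and 0.09 in control rats 1 to 4. In these rats 6, 9, 8 and 5 of the 10 genes exceeded their control mean in treated rats 1 to 4, against 3, 4, 6 and 6 in control rats 1 to 4. Without treated rat 2 the median difference of the 10 genes was 0.09, against 0.26 with all arrays.

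**Figure D3:**
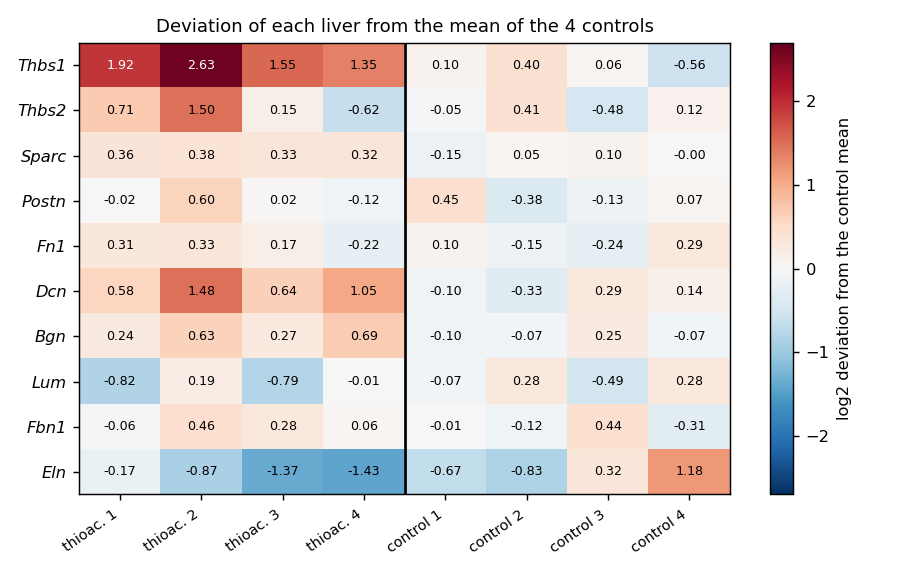
Deviation of each liver (columns, the 4 treated left of the line and the 4 controls right of it) from the mean of the 4 controls, in log2 units, for the 10 genes. Thbs1, Dcn and Bgn are positive in all 4 treated livers, Sparc is positive by about the same amount in each, and Eln is negative in all 4.

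Stellate cell, fibroblast and smooth muscle markers were measured beside these genes. Of 18 such markers 3 rose and 0 fell (limma; unadjusted, 5 higher and 1 lower; median difference 0.21). The mean log2 level of the list was 9.29 to 9.61 in treated rats, with treated rat 2 the highest, and 9.16 to 9.38 in controls. Cygb, a stellate cell globin, rose by 1.35 ± 0.21 (adjusted p = 0.00241, with 1 of 4 control arrays above background), and Lrat, which stores vitamin A as ester, by 0.73 ± 0.18 (adjusted p = 0.0242, but 0.0875 after cyclic loess and 0.0511 with an intensity trend and robust variance). Des, desmin, rose too (1.01 ± 0.28, adjusted p = 0.0393), with 2 of 4 treated and 0 of 4 control arrays above background and no fold given for that reason, and an adjusted p of 0.0561 after median centring. Named after their values were seen, Acta2, the smooth muscle actin of myofibroblasts, differed by -0.71 ± 0.43 (adjusted p = 0.309) and the collagen gene Col1a1 by 0.51 ± 0.38 (adjusted p = 0.412). The number that rose was 1 without control rat 1 or treated rat 1, 2 or 3, and 1 fell without control rat 4. Whether the number of these cells had a part in the levels of Dcn, Thbs1 and Sparc was not tested.

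In 8 lists of related matrix genes, 12 of 121 measured genes rose and 4 fell, counts that stand beside 9.67% higher and 5.24% lower over all genes. Ccn1, a matricellular integrin ligand, rose to 11.60 ± 0.27 in treated rats, against 9.91 ± 0.61 in controls (1.69 ± 0.30, 3.22-fold, adjusted p = 0.00503), whereas the related Ccn2, or connective tissue growth factor, named after its values were seen, differed by -0.11 ± 0.24 (adjusted p = 0.797). Of 17 other thrombospondin and matricellular genes, Ccn1 rose and Smoc1, a SPARC-related protein, fell (-1.19 ± 0.29, adjusted p = 0.0228), with a median difference of -0.02. The fall of Smoc1 was lost without control rat 2 or treated rat 1, 2 or 4 (adjusted p = 0.0549 to 0.0717).

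In the list of other elastic fibre genes 2 of 17 rose and 0 fell (limma; unadjusted, 5 higher and 3 lower; median 0.11). Fbln1, fibulin 1, which binds fibronectin and elastin fibres, rose 3.12-fold (1.64 ± 0.24, adjusted p = 0.00188, with 2 of 4 control arrays above background). Lox, the enzyme that crosslinks elastin and collagen, rose by 1.48 ± 0.35 (adjusted p = 0.0188, with 1 of 4 control arrays above background) and lost the threshold without control rat 2 or treated rat 1 or 2 (adjusted p = 0.0515 to 0.0636). After cyclic loess 3 members of that list fell, and 1 fell without control rat 2. Among 9 other small leucine-rich proteoglycans 0 rose (limma; unadjusted, 1) and Omd, osteomodulin, fell to 6.92 ± 0.18 in treated rats, against 8.83 ± 0.78 in controls (-1.91 ± 0.35, adjusted p = 0.00554, with 3 of 4 arrays above background in each group). Of 16 large and cell surface proteoglycans 0 changed (limma; unadjusted, 0 higher and 3 lower; median -0.26), while 2 fell without control rat 3, 2 after cyclic loess, 3 with array weights and 4 without control rats 2 and 3 and treated rat 4. Gpc3, a glypican of fetal liver, differed by 1.14 ± 0.59 (adjusted p = 0.227) and Col18a1, the proteoglycan collagen that yields endostatin, by -0.83 ± 0.25 (adjusted p = 0.0501). Col18a1 passed under 8 of 16 alternatives and Gpc3 under 1. The second probe set of Col18a1 gave -0.89 ± 0.27 (limma adjusted p = 0.0545).

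Of 14 adhesive glycoproteins of plasma and basement membrane 3 rose, all laminin chains, and 0 fell (limma; unadjusted, 3 higher and 2 lower; median 0.03), while 1 fell without treated rat 4. The laminin chains Lama2, Lama4 and Lamb2, named after their values were seen, did not pass. Lamb2 differed by -0.40 ± 0.17 (limma adjusted p = 0.159) and was 1 of the 2 unadjusted falls, with Vtn the other. Lama5 rose 2.95-fold (1.56 ± 0.21, adjusted p = 0.00106) and Lamc1 1.88-fold (0.91 ± 0.18, adjusted p = 0.00804). Lamb1 rose by 0.72 ± 0.19 (adjusted p = 0.0341), a call lost without any one of 7 arrays, all but that of control rat 3 (adjusted p = 0.0526 to 0.111), and after cyclic loess (adjusted p = 0.211), after quantile normalization (0.0816) and with an intensity trend and robust variance (0.0769).

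Among 12 measured receptors for fibronectin and thrombospondins 3 rose and 1 fell (median 0.22). Itgb1, the integrin beta 1 chain of the fibronectin receptor, rose by 1.54 ± 0.35 (adjusted p = 0.0149), though not without treated rat 2 (adjusted p = 0.0548). Itgav, the integrin alpha V chain, named here after its values were seen, rose by 1.05 ± 0.20 (adjusted p = 0.00652), and its second probe set gave 1.38 ± 0.26. Cd36, a receptor for thrombospondin 1 and fatty acids, rose by 1.39 ± 0.38 (adjusted p = 0.0346) and was lost without any one of control rats 1, 2 and 3 and treated rats 1, 2 and 3 (adjusted p = 0.0577 to 0.109), and without control rats 2 and 3 and treated rat 4 together (1.06, adjusted p = 0.0692). Lrp1, the endocytic receptor that clears thrombospondins, fell by 1.55 on the log2 scale (SE 0.32, adjusted p = 0.00971), to 11.87 ± 0.61 in treated rats, against 13.42 ± 0.36 in controls (SD, n = 4 each). Without treated rat 2 the rises in this list numbered 1.

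In the synthesis of glycosaminoglycan chains, 1 of 17 genes rose and 1 fell (median 0.10). Chpf, a chondroitin polymerizing factor, was at least 3.36-fold higher in treated livers, and not above background in any control (measured means 9.04 in treated rats and 6.26 in controls, adjusted p = 0.000989). Xylt1, which starts such chains on core proteins, fell by 1.12 (SE 0.33, adjusted p = 0.0472), with 1 of 4 treated and 3 of 4 control arrays above background. This was a call lost without any one of control rats 1 and 2 and treated rats 1 to 4 (adjusted p = 0.0722 to 0.127), and without control rats 2 and 3 and treated rat 4 together, where the difference was -0.66 (adjusted p = 0.128). It was also lost after quantile normalization (adjusted p = 0.0547) and with an intensity trend and robust variance (adjusted p = 0.0528). The rises numbered 2 without control rat 4 or treated rat 4. Of 19 proteases that cut these proteins and their inhibitors 2 rose and 0 fell (limma; unadjusted, 4 higher and 0 lower; median 0.16). Mmp12, macrophage elastase, was at least 5.27-fold higher in treated livers and not above background in any control (measured means 9.69 in treated rats and 5.87 in controls, adjusted p = 6.55e-05). Timp1, a metalloproteinase inhibitor, rose by 1.38 ± 0.31 (adjusted p = 0.0144, with 2 of 4 control arrays above background), and missed the threshold by a narrow margin after cyclic loess, which left 1 rise in the list.

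**Figure D4:**
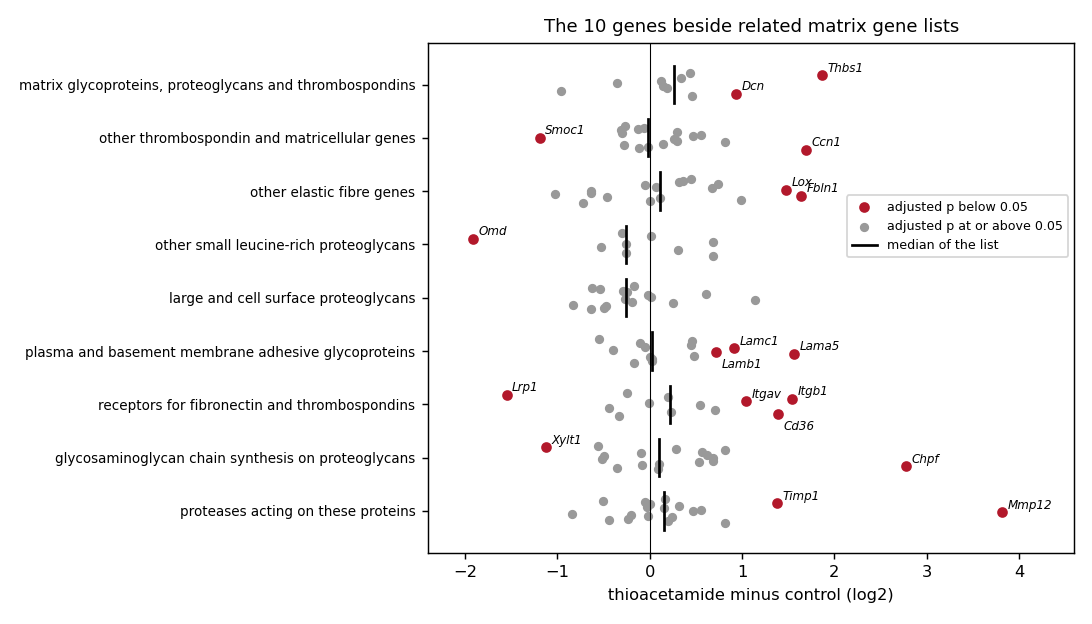
Thioacetamide minus control differences (x axis, log2) of the 10 genes (top row) and of 8 lists of related genes, a point for each gene and a vertical line at each list's median. Red points passed the adjusted threshold and carry names. The medians lie between -0.26 and 0.26.

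By profile, the 3 probe sets nearest to Thbs1 over the 8 arrays, after subtraction of each control mean, were those of Wdhd1, Zfp202 and Ttc12 (root mean square distance 0.26, 0.30 and 0.30 log2 units). Nearest to Dcn were Ift56, Sec23ip and Papss1 (0.11, 0.15 and 0.17).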

How the data were processed

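Total RNA from 8 rat livers was hybridised to 8 NimbleGen 1-colour arrays. The authors deposited log2 values, made with RMA per the submitters' processing notes; its settings and the scanner are not stated. All 8 arrays hold 26208 probe sets but for control rat 4, with 26197. Each array is 1 animal, and precision is limited by there being 4 in a group. The 10 genes and all lists (8 of related genes, 7 of cell types) were chosen with earlier results of these data known.

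Differences, standard errors and confidence intervals came from limma 3.58.1 (lmFit and eBayes, R 4.3.3), and p-values were adjusted over the whole array by the Benjamini-Hochberg method (called below 0.05). A gene with several probe sets was taken at the one with the highest mean. Where no array of a group exceeded the background, a fold is a bound. From each list the 3 called genes with the largest difference and the largest called the other way were named, or the 2 largest differences where none was called; 1 gene that this rule names is not reported here. Pairs were tested by exact permutation (scipy 1.17.1). On simulated data of 26197 probe sets, with 100 changed 2-fold and 100 changed 4-fold, limma recovered 29% and 72%, with 9 false among 110 calls. The comparison of the livers called 3827, so the adjustment differed and these rates do not give its power. Alternatives were cyclic loess, quantile and median normalization, a filter on dim probe sets, array weights, an intensity trend with robust variance, a replicate block, a 90th percentile for the background, and leaving out arrays.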

Additional observations from a re-analysis of the deposited data

Results flagged for a closer look

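Of 84 gene and group combinations checked, 5 had an animal far from the other 3 of its group, by the gap to its nearest neighbour as a share of the group's range (above Dixon's 95% critical value), and chance gives about 1 in 20. Bgn was highest in control rat 3, at 13.01 (share 0.909), where it met the treated range. Treml1 was also highest in control rat 3, at 8.81 (0.853). Lox was highest in control rat 4, at 6.99 (0.837), and Mmp12 in control rat 2, at 6.43 (0.943), under the background of that array. Gpm6a, a mesothelial marker, was highest among treated livers in treated rat 1, at 8.62 (0.860).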

How the results depend on the processing

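The rise of Thbs1 passed under all 16 alternatives (1.61 to 2.27), while that of Dcn kept its direction and passed under 9. The genes of the 10 called (and their probe sets) numbered 1 under cyclic loess, under the replicate block and without 3 arrays (control rats 2 and 3, treated rat 4), and 1 to 2 with any one array left out. Replicate numbers did not pair the animals (correlation of deviations 0.25, -0.10, -0.13 and -0.43 for numbers 1 to 4); with the replicate block 2163 probe sets were called, 1475 higher and 688 lower, against 3827 (2480 and 1347). Array weights gave 2082 lower. Leaving out 1 array gave 2166 to 3924 calls, 1447 to 2436 higher and 719 to 1488 lower. Falls in the related lists numbered 9 with array weights, 9 under cyclic loess, 8 with the filter, 2 with the replicate block, 10 without the 3 arrays and 2 to 6 with 1 array left out, against 4. The sign turned for Fbn1 under cyclic loess (-0.00675) and for Postn without the 3 arrays (-0.0528), and Postn ran from -0.0373 to 0.272 with 1 array left out. The median of the 10 genes was 0.09 to 0.31 with 1 array left out. The causes were not tested. The filter tested 14699 probe sets, without Postn and Thbs2. Averaging a gene's probe sets was not run, since each of the 10 has 1. At the 90th percentile, treated arrays above background numbered 3 for Lum and Thbs2, 4 for Eln and 1 for Postn. Dim genes near the background limit what a difference can show.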

Other observations

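Markers of other liver cells were measured in the same livers. Of 12 macrophage markers 0 rose and 4 fell (limma; unadjusted, 0 higher and 8 lower; median -0.74), with a mean log2 level of 11.1 to 11.6 in treated rats and 11.9 to 12.6 in controls. Cd14, the lipopolysaccharide co-receptor, differed by -2.16 ± 0.19 (SE), Marco, a scavenger receptor, by -1.48 ± 0.40, and Csf1r, the receptor for macrophage growth factor, by -0.94 ± 0.24. The falls numbered 1 without treated rat 2 and 2 without treated rat 1, 3 or 4. Without control rats 2 and 3 and treated rat 4 together they numbered 2, with Marco (-0.85, adjusted p = 0.0982) and Csf1r (-0.71, adjusted p = 0.0934) lost. Of 11 endothelial markers 0 rose and 1 fell (limma; unadjusted, 0 higher and 4 lower; median -0.45), which was Vwf at -0.91 ± 0.22, a call lost without treated rat 1 or 3 and without those 3 arrays (-0.66, adjusted p = 0.0850), and 1 rose without treated rat 4. Of 10 bile duct markers 2 rose and 0 fell (limma; unadjusted, 4 higher and 0 lower; median 0.17), with Cldn7 higher by 3.52 ± 0.32 and Epcam by 1.87 ± 0.26. Of 7 mesothelial markers 0 changed (limma; unadjusted, 1 higher and 0 lower; median -0.11), with Gpm6a at 0.72 ± 0.30 and Lrrn4 at -0.62 ± 0.42, and 1 rose without control rat 4. Among hepatocyte markers (median -0.08) Tat differed by -0.39 ± 0.25 and Ass1 by -0.21 ± 0.17. The part of these cells in the levels of the matrix genes was not tested.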
